A study of Mus musculus with 8 samples.

Results

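The 7 genes described here are the mouse Fc gamma receptors Fcgr1, Fcgr2b, Fcgr3 and Fcgr4, the gamma chain Fcer1g, the tyrosine kinase Syk and the neonatal Fc receptor Fcgrt. They were chosen by gene name, and each had 1 row that carried no other gene name among the 48607 loci of the gene table. RNA of the whole aorta was sequenced from ApoE-/- mice and NPRC-/-ApoE-/- mice, all fed a Western diet, so that every animal lacked apolipoprotein E and the comparison asks what loss of natriuretic peptide receptor C (NPRC, encoded by Npr3) adds. The NPRC deletion was made with CRISPR in the whole body and is not restricted to a cell type. The titles give 5 ApoE-/- libraries, with numbers 1 to 5, and 3 NPRC-/-ApoE-/- libraries, with numbers 1 to 3. The methods of the study describe more double knockout aortas than were analysed here.

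The genotype entered in a separate field disagreed with the title for 4 of the 8 libraries. ApoE-/- 4 and 5 were entered as Nprc-/-Apoe-/-, and NPRC-/-ApoE-/- 1 and 2 as Apoe-/-. Every comparison is therefore given under both groupings, each of which sets 5 libraries against 3. Npr3 was between 0.62 and 1.69 FPKM (fragments scaled to transcript length and library size) in the ApoE-/- group by title and between 1.13 and 1.39 FPKM in the NPRC-/-ApoE-/- group, so its level did not separate the groups. The locus total does not show whether the edited part of Npr3 was intact. Total counts were between 62969165 and 86693276 per library.

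Fc receptors bind the constant part of antibodies. Fcgr1, Fcgr3 and Fcgr4 are activating receptors for IgG, which need the gamma chain Fcer1g to reach the cell surface and to signal. The chain carries an ITAM, a tyrosine motif that Src family kinases phosphorylate and that then recruits Syk. Fcgr2b carries an inhibitory motif instead and recruits phosphatases that oppose this relay. Fcgrt, which pairs with beta-2 microglobulin, takes up IgG and albumin inside cells and returns them to the circulation, and it uses neither the gamma chain nor Syk. Macrophages of the plaque are the best known source of the Fc gamma receptors in the atherosclerotic artery, while endothelial cells also express Fcgrt.

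The genes of the 3 low-affinity and intermediate-affinity receptors lie close together on chromosome 1. On GRCm38, with genes named from GENCODE M21, the deposited loci are Fcgr2b at chr1:170958617-170976127 on the minus strand, Fcgr4 at chr1:171018920-171029761 on the plus strand and Fcgr3 at chr1:171051174-171059403 on the minus strand. Fcer1g follows at chr1:171229572-171234365 on the minus strand. Fcgr1 lies at chr3:96282909-96293969 on the minus strand, Fcgrt at chr7:45092990-45103851 on the minus strand and Syk at chr13:52583173-52648792 on the plus strand. The annotation places an antisense gene over Fcgr2b (Gm38204) and over Fcgrt (Gm45669) and a small nuclear RNA inside Fcgr4 (Gm26110). Whether the counting used strand is not given in the sources used here, so reads of these overlapping genes cannot be told apart.

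The promoters of the activating receptors are shown beside those of the gamma chain and Fcgrt, while those of Fcgr2b and Syk are not printed. Each sequence is the 250 bases before the RefSeq transcription start (build GRCm38.p6), read 5′ to 3′ in the direction of transcription. Capitals mark the letters TTCCTC, which is GAGGAA on the other strand, the core of the box bound by the myeloid factor PU.1.
Fcgr1, chr3:96293970-96294219, minus strand: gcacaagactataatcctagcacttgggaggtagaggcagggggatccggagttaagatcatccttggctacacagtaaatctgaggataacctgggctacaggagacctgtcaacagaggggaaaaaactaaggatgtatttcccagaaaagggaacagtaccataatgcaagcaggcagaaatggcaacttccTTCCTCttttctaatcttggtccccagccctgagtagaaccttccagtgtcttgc
Fcgr3, chr1:171059404-171059653, minus strand: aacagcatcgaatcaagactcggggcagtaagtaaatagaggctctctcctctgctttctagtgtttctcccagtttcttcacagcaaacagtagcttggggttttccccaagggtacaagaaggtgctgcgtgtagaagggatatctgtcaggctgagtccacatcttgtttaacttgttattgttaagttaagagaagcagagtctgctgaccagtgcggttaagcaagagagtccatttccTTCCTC
Fcgr4, chr1:171018676-171018925, plus strand: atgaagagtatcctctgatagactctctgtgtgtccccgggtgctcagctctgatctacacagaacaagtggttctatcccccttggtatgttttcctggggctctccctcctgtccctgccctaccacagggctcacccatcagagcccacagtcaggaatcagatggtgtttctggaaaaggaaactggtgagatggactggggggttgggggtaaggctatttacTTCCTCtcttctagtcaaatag
Fcer1g, chr1:171234350-171234599, minus strand: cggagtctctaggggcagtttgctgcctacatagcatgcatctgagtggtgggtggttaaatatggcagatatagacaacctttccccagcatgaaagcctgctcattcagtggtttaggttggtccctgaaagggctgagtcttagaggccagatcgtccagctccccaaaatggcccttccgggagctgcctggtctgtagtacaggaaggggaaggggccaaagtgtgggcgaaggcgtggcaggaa
Fcgrt, chr7:45103823-45104072, minus strand: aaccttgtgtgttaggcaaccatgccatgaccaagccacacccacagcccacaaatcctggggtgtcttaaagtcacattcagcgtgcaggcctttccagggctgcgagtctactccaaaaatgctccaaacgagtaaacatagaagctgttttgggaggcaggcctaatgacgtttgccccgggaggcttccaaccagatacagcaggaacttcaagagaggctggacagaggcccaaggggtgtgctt

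GAGGAA on either strand occurred in the window from 250 bases before to 50 after the start for 4 of the 7 genes, and in 28.3% of all 32851 RefSeq promoters with the same window. It lay 55 bases before the start in Fcgr1, 22 bases before it in Fcgr4 and 6 bases before it in Fcgr3. In the second of the Syk promoters it lay 9 bases before the start. It was not among the letters of these windows for Fcgr2b, Fcer1g, Fcgrt or the first Syk promoter. The letters TTC-NNN-GAA, the pattern of the interferon-gamma activated site, read the same on both strands and occurred in Fcgr1 only, 109 bases before the start, against 8.3% of all promoters. TATAAA on either strand was in none of the 9 promoters of the 7 genes and in 13.6% of all promoters. These matches describe letters and are not evidence of binding.

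FPKM is scaled to the length assigned to each locus, so the order below depends on those lengths. In counts, which are not scaled to length, Syk was highest of the 7 genes, at 4250 to 13929 per library. Fcgr2b, at 1493 to 9674 counts, was above Fcgr3, at 1471 to 8699. By median over the 8 libraries, Fcgr3 was highest at 26.31 FPKM, followed by Fcer1g at 20.28, Fcgrt at 16.31, Fcgr2b at 9.64, Syk at 6.835, Fcgr4 at 6.15 and Fcgr1 at 4.495 FPKM. The order was not equally firm along this list. Fcgr3 exceeded Fcer1g in 5 of 8 libraries, and Fcer1g exceeded Fcgrt in 5 of 8, so these neighbours did not differ beyond their spread. Fcgrt exceeded Fcgr2b in 7 of 8 libraries and Syk exceeded Fcgr4 in 6 of 8. In FPKM, Fcgr2b was above Syk, and Fcgr4 above Fcgr1, in 8 of 8 libraries.

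The high-affinity IgG receptor Fcgr1 was measured at 4.67, 6.81, 8.30, 7.04 and 3.16 FPKM in the libraries titled ApoE-/- 1 to 5, and at 4.32, 1.12 and 1.17 FPKM in those titled NPRC-/-ApoE-/- 1 to 3. NPRC-/-ApoE-/- 2 and 3 were the lowest of all, while NPRC-/-ApoE-/- 1 lay above ApoE-/- 5, so the titled groups overlapped. By title, Fcgr1 was 2.75-fold lower in NPRC-/-ApoE-/- (log2 fold change -1.46, SE 0.53, 95% interval -2.65 to -0.27), with an unadjusted p of 0.022 and an adjusted p of 0.31 in the quasi-likelihood test of edgeR, adjusted by the Benjamini-Hochberg method over all loci. It had the widest spread of the 7 genes, with a highest library 7.41 times the lowest.

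Fcgr3, the low-affinity activating receptor and the highest of the 4 in FPKM, was 25.51, 33.88, 47.87, 46.38 and 17.03 FPKM in ApoE-/- 1 to 5 and 27.11, 10.36 and 10.39 FPKM in NPRC-/-ApoE-/- 1 to 3. The library NPRC-/-ApoE-/- 1 lay above ApoE-/- 1 and 5, and the other 2 double knockout libraries were again the lowest. Its log2 fold change by title was -1.11 (SE 0.46, edgeR adjusted p 0.34), with an unadjusted p of 0.038, the weakest of the 6 genes under 0.05. Fcgr4, an activating receptor of intermediate affinity, was 6.46, 8.33, 14.90, 11.88 and 4.50 FPKM in ApoE-/- 1 to 5 and 5.84, 2.62 and 2.24 FPKM in NPRC-/-ApoE-/- 1 to 3. Here NPRC-/-ApoE-/- 1 exceeded only ApoE-/- 5. The difference was -1.39 on the log2 scale (SE 0.49, unadjusted p 0.019, edgeR adjusted p 0.31).

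The inhibitory receptor Fcgr2b went with the activating ones. It was 9.64, 12.41, 16.93, 15.56 and 6.76 FPKM in ApoE-/- 1 to 5 and 9.64, 3.35 and 3.91 FPKM in NPRC-/-ApoE-/- 1 to 3. NPRC-/-ApoE-/- 1 had the same FPKM as ApoE-/- 1 and a higher one than ApoE-/- 5. The log2 fold change by title was -1.13 (SE 0.43, unadjusted p 0.028, edgeR adjusted p 0.32), a 2.20-fold lower level.

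The gamma chain Fcer1g was 28.63, 22.38, 48.02, 35.28 and 17.66 FPKM in ApoE-/- 1 to 5 and 18.18, 9.98 and 8.25 FPKM in NPRC-/-ApoE-/- 1 to 3. The groups overlapped through NPRC-/-ApoE-/- 1 and ApoE-/- 5 alone, which were close to each other. The gene had the smallest p of the 7, with a log2 fold change of -1.34 (SE 0.40, 95% interval -2.25 to -0.43), an unadjusted p of 0.0089 and an edgeR adjusted p of 0.28. Syk, the kinase that docks on the phosphorylated chain, was 7.40, 8.60, 8.32, 8.39 and 4.98 FPKM in ApoE-/- 1 to 5 and 6.27, 3.32 and 3.24 FPKM in NPRC-/-ApoE-/- 1 to 3. Its difference was smaller, at -0.81 (SE 0.28, unadjusted p 0.017, edgeR adjusted p 0.31) or 1.76-fold lower, and its highest library was 2.65 times its lowest.

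Fcgrt stood apart from these 6 genes. It was 15.49, 20.27, 13.34, 17.59 and 19.44 FPKM in ApoE-/- 1 to 5 and 17.13, 13.84 and 15.31 FPKM in NPRC-/-ApoE-/- 1 to 3. ApoE-/- 3, the library with the highest level of the other receptors, had the lowest Fcgrt in FPKM, and the 3 double knockout libraries lay within the range of the ApoE-/- libraries. The log2 fold change by title was -0.13 (SE 0.15, unadjusted p 0.39, edgeR adjusted p 0.71), with a 95% interval of -0.46 to 0.20 that leaves out a 2-fold difference either way. Its highest library was 1.52 times its lowest.

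**Figure D1:**
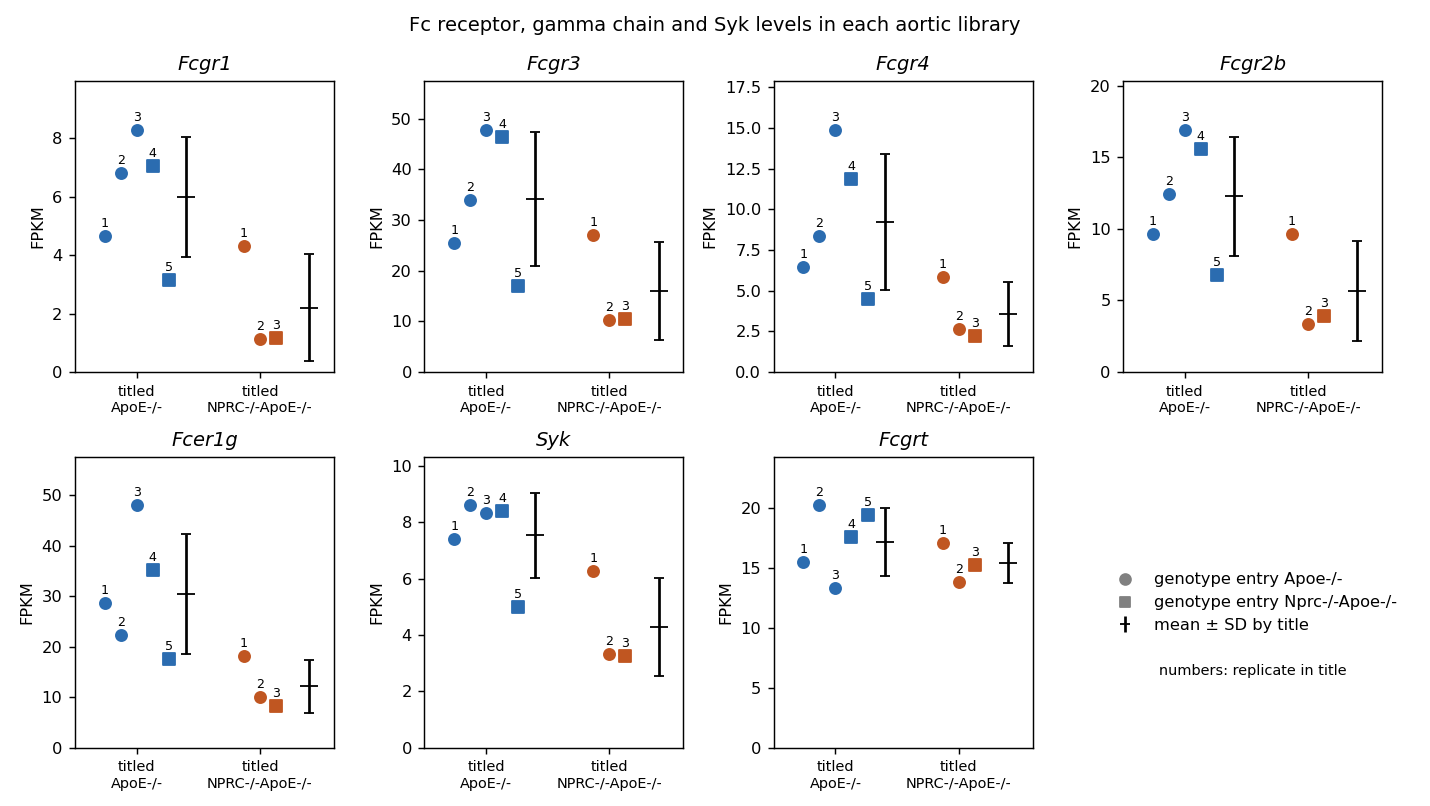
FPKM of the 7 genes in each of the 8 libraries, by the group in the title, with the replicate number beside each point, the marker shape giving the genotype entry and bars giving mean ± SD by title. In all panels but that of Fcgrt, NPRC-/-ApoE-/- 2 and 3 lie lowest and NPRC-/-ApoE-/- 1 lies among the ApoE-/- libraries.

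By the criterion of the study (an unadjusted p under 0.05 together with a fold past 2 or under 0.5), 5 of the 7 genes were lower by title, namely Fcgr1, Fcgr2b, Fcgr3, Fcgr4 and Fcer1g, where 2.39% of the 20506 loci tested were called lower. At an unadjusted p under 0.05 alone, 6 of 7 were lower, against 7.13% of all loci. At an adjusted p under 0.05, edgeR called 0 of 7 genes and 0 of all loci (0.0%), of which 2797 had an unadjusted p under 0.05. DESeq2 called 1 of the 7 (Fcer1g, adjusted p 0.027) and 3.17% of all loci. Limma on log2(FPKM + 1) called 0 of the 7 and 0.00975% of all loci, and limma with array quality weights called 6, all but Fcgrt, and 5.7% of all loci. The median log2 fold change was -1.13 for the 7 genes and -0.01 for all loci tested. The groups by title overlapped for 7 of 7 genes, while 3.69% of all loci were lower without overlap.

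Two-sided exact permutation tests of the mean log2 CPM (counts scaled to library size), 7 for each grouping and unadjusted, gave p = 0.071 for Fcgr1, Fcgr4, Fcer1g and Syk, 0.107 for Fcgr2b and Fcgr3 and 0.393 for Fcgrt by title. With 5 against 3 libraries the smallest p that such a test can give is 0.036.

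The count of called genes depended on single libraries. Without NPRC-/-ApoE-/- 2, or without NPRC-/-ApoE-/- 3, 1 of the 7 genes (Fcer1g) met the criterion of the study, and the share of all loci called lower was 1.11% and 1.32%. Without ApoE-/- 3, or without ApoE-/- 4, 3 genes did (Fcgr1, Fcgr4 and Fcer1g), with 1.5% and 1.68% of all loci. Without NPRC-/-ApoE-/- 1, 6 genes met it, Syk included, with 5.32% of all loci, and the log2 fold change of Fcgr1 was -2.37. All 7 genes were lower in the titled double knockout whichever library was left out.

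Grouped by genotype entry, the differences of the 6 genes other than Fcgrt were smaller than their standard errors, and that of Fcgrt was about the size of its own. The log2 fold change, Nprc-/-Apoe-/- against Apoe-/-, was -0.39 for Fcgr1 (SE 0.68), -0.22 for Fcgr2b (SE 0.56), -0.20 for Fcgr3 (SE 0.57), -0.28 for Fcgr4 (SE 0.64), -0.30 for Fcer1g (SE 0.57), -0.26 for Syk (SE 0.38) and 0.15 for Fcgrt (SE 0.15). Of the 7, 0 had an unadjusted p under 0.05 in edgeR, where 0.697% of all loci were lower at that p and 0.263% by the criterion of the study, and 0 had an adjusted p under 0.05, as did 0 of all loci (0.0%). DESeq2, which called 0.0439% of all loci, and the limma fits, which called 0.0%, also called 0 of the 7. The intervals were wide: that of Fcgr1 ran from -1.93 to 1.16, and so includes a 2-fold difference either way. Exact permutation p-values, two-sided, were between 0.25 and 0.679. Under this grouping ApoE-/- 4, second highest in log2 CPM for all 7 genes, stands with the double knockouts, and NPRC-/-ApoE-/- 2, among the lowest 2 in log2 CPM for all 7, stands with the ApoE-/- libraries.

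**Figure D2:**
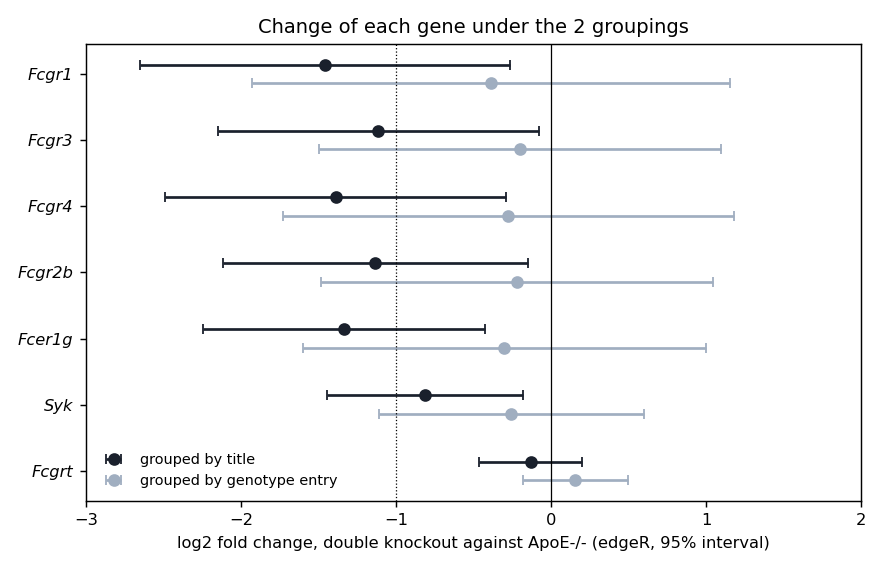
Log2 fold change of each gene, double knockout against ApoE-/-, with its 95% interval from edgeR, by title (dark) and by genotype entry (light), with a dotted line at a fold change of 0.5. By title, 6 intervals lie below 0 and that of Fcgrt crosses it, and by genotype entry all 7 intervals cross 0.

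The 6 genes other than Fcgrt ranked the libraries almost alike in log2 CPM. On that scale ApoE-/- 3 was highest and ApoE-/- 4 second for each of the 6, ApoE-/- 5 was in place 6 for each, and NPRC-/-ApoE-/- 2 and 3 took places 7 and 8. In FPKM the order differed for Syk, which was highest in ApoE-/- 2. Pearson's r of log2 CPM between pairs of these 6 genes, over 8 libraries that share the same 2 low and 2 high libraries, was between 0.926 (Fcer1g and Syk) and 0.994 (Fcgr2b and Fcgr3). With Fcgrt it was between 0.065 and 0.35.

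Among 18471 loci with 1 gene name, those with the most similar log2 CPM over the 8 libraries were Arhgap9, Rps6ka1 and Neurl3 for Fcgr1 (r between 0.995 and 0.997) and Cotl1, Hvcn1 and Tnfaip8l2 for Fcgr2b (0.997 to 0.998). For Fcgr3 they were Tbc1d22a, Ripk3 and Sdc3 (0.997 to 0.999), and for Fcgr4 Lrrc25, Gpr157 and Selplg (0.993 to 0.996). Fcer1g was most like B430306N03Rik, Laptm5 and Csmd1 (0.988 to 0.990), and Syk most like Plac8, H2-M3 and Ms4a6c (0.994 to 0.996). For Fcgrt the closest loci, Rfc4, Fgfr1op and Gm12397, reached 0.932 to 0.943. With so many loci compared over 8 libraries these values are a description.

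The balance between the receptors varied far less than their level. Summed over the 4 Fc gamma receptors, the level was 46.28, 61.43, 88.00, 80.86 and 31.45 FPKM in ApoE-/- 1 to 5 and 46.91, 17.45 and 17.71 FPKM in NPRC-/-ApoE-/- 1 to 3, a range of 5.04 times. The ratio of the inhibitory Fcgr2b to the sum of the 3 activating receptors stayed between 0.238 and 0.283, with a highest library 1.19 times the lowest and overlapping groups. Fcgr2b was 19.2 to 22.1% of the summed level in every library. Shares of the summed FPKM depend on the lengths assigned to the loci.

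Fcgr3 made up 54.1 to 57.4% of the summed level among ApoE-/- libraries by title and 57.8 to 59.4% in those titled NPRC-/-ApoE-/-, without overlap. By genotype entry it made up 54.4 to 59.4% in Apoe-/- and 54.1 to 58.7% in Nprc-/-Apoe-/- libraries, which overlapped. This share was picked out of 11 ratios after their values were seen and was not tested. Fcgr1 made up 8.71 to 11.1% and 6.42 to 9.21% in the titled groups, which overlapped, and its lowest shares were in NPRC-/-ApoE-/- 2 and 3. Fcgrt per Fcer1g ranged from 0.278 in ApoE-/- 3 to 1.86 in NPRC-/-ApoE-/- 3, so that in FPKM the gamma chain exceeded Fcgrt in some libraries and fell short of it in others.

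**Figure D3:**
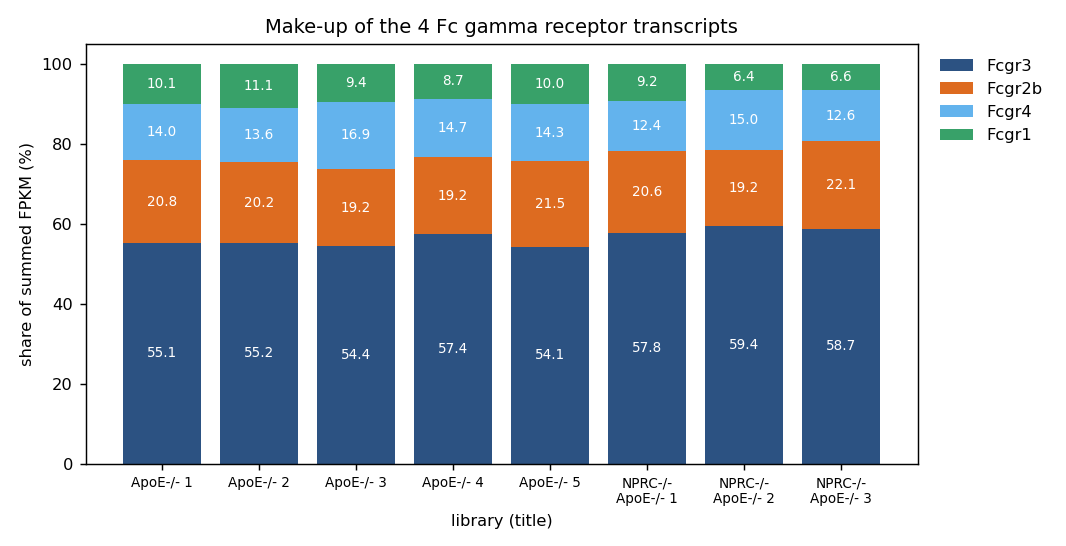
Share of each of the 4 Fc gamma receptors in their summed FPKM, as a stacked bar for each library. Fcgr3 takes 54.1 to 59.4% of every bar and Fcgr2b 19.2 to 22.1%, while the Fcgr1 share is lowest in NPRC-/-ApoE-/- 2 and 3.

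Leukocyte markers also had lower estimates in the titled double knockout. In a bulk sample, fewer cells of a type and less RNA per cell cannot be told apart. Of 12 macrophage markers, 12 had a lower estimate by title and 3 met the criterion of the study, by which 2.39% of all loci were lower. Their summed level ran from 767 to 2357 FPKM among ApoE-/- libraries and from 368 to 1200 FPKM among NPRC-/-ApoE-/- libraries. None of the 12 was at 0 in any library. Of 5 pan-leukocyte markers, 5 had a lower estimate and 3 met the criterion, with summed levels of 81.02 to 185.80 and 44.11 to 108.59 FPKM. Of 6 smooth muscle markers, 6 were higher at an unadjusted p under 0.05 (6.51% of all loci), 0 of them by 2-fold, with sums of 1301 to 1742 and 1675 to 2888 FPKM.

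Set against the mean log2 CPM of the 8 macrophage markers whose locus carried no other gene name, which was 1.19 lower by title, the 4 Fc gamma receptors, the gamma chain and Syk differed less between the titled groups, and Fcgrt differed more. The mean difference of Fcgr2b minus the marker mean was -0.003 on the log2 scale, that of Fcgr3 0.06, that of Fcer1g -0.11 and that of Fcgr4 -0.16. For Fcgr1 it was -0.46, for Syk 0.35 and for Fcgrt 1.06. The titled groups overlapped in each of these 7 quantities. The macrophage markers left out of this mean, for sharing a locus with another gene name, had the smallest decreases of the list. By title, Mertk stood at -0.02, Cd68 at -0.45, Mrc1 at -0.63 and Itgam at -0.70 on the log2 scale. The small differences of Fcgr2b and Fcgr3 from the marker mean therefore depend on this choice of markers. Against the mean of the 5 pan-leukocyte markers, which spanned 2.29 log2 units over the libraries, Fcgr2b stayed within 0.19 log2 units, Fcgr3 within 0.37, Fcgr4 within 0.64, Fcgr1 within 0.73, Fcer1g within 0.83 and Syk within 0.86, while Fcgrt ranged over 2.29. The part of leukocyte content in the differences of the receptors was not tested.

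**Figure D4:**
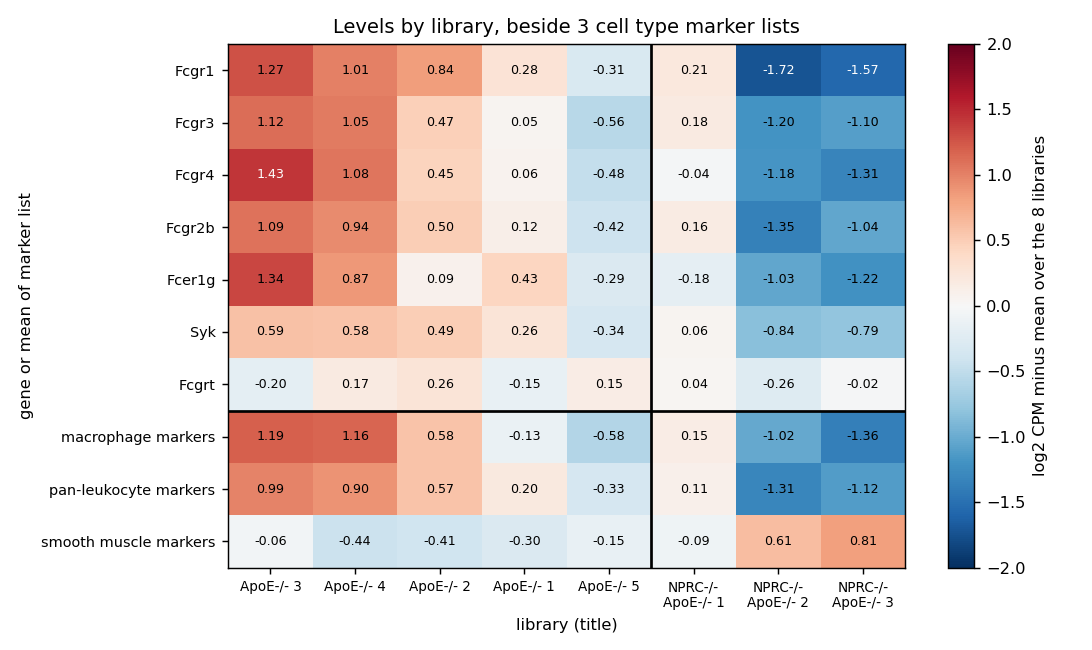
Log2 CPM of the 7 genes and mean log2 CPM of 3 marker lists (8 macrophage, 5 pan-leukocyte and 6 smooth muscle loci), each minus its mean over the 8 libraries, with ApoE-/- libraries ordered by Fcgr3. The rows of the 6 genes and of both leukocyte lists run from high in ApoE-/- 3 and 4 to low in NPRC-/-ApoE-/- 2 and 3, the Fcgrt row stays between -0.26 and 0.26, and the smooth muscle row is highest in NPRC-/-ApoE-/- 2 and 3.

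Markers of other cells that carry such receptors were also measured. Of 6 mast cell markers, 5 passed the filter and had a lower estimate by title, 4 of them by the criterion of the study (2.39% of all loci). Their summed levels were 8.21 to 21.97 FPKM in ApoE-/- and 3.84 to 5.43 FPKM in NPRC-/-ApoE-/-. Of the 4, Cpa3 and Tpsb2 reached 1 FPKM in titled ApoE-/- libraries only, and so passed the filter through the group where they were higher. In NPRC-/-ApoE-/- they were at most 0.67 and 0.66 FPKM. Mast cells also use the gamma chain Fcer1g, with the IgE-binding chain Fcer1a. Fcer1a itself was between 0.07 and 0.70 FPKM, and Ms4a2, the beta chain of that receptor, reached at most 0.08 FPKM and was listed at 0 in the 3 titled double knockout libraries. Of 6 neutrophil markers, 4 were tested and 1 (Csf3r) was called lower. S100a8 and Retnlg had estimates of -0.28 (SE 0.81) and -0.43 (SE 0.76), and S100a9 a higher one of 0.33 (SE 0.62). Ly6g was at most 0.12 FPKM in any library. For dendritic cells 3 of 6 markers were tested, 2 were called lower and Zbtb46 had a higher estimate of 0.07 (SE 0.12). For B cells 1 of 5 was tested (Cd22, called lower) and for NK and T cells 2 of 6, of which Nkg7 was called lower. Of 6 endothelial markers, 4 had a lower and 2 a higher estimate and 0 met the criterion. Of 6 fibroblast markers, all had a lower estimate and 0 met it, and of 5 tested adipocyte markers 1 had a lower estimate and 0 met it. Their part in the differences was not tested.

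Below the gamma chain, the relay consists of Src family kinases, Syk, adaptors, phospholipase C and the subunits of the phagocyte oxidase. Of 30 listed genes besides Syk, 29 were tested, 27 had a lower and 2 a higher estimate by title, 15 were lower at an unadjusted p under 0.05 and 10 met the criterion of the study. Of all loci, 7.13% were lower at that p and 2.39% by the criterion. The median log2 fold change was -0.90. Lcp2, the adaptor SLP-76, was 1.53 to 2.48 FPKM in ApoE-/- and 0.63 to 1.30 FPKM in NPRC-/-ApoE-/-, without overlap, with a log2 fold change of -1.06 (SE 0.27, edgeR adjusted p 0.26). The kinase Btk had -1.29 (SE 0.43), and met the criterion. The kinase Lyn had -0.98 (SE 0.31) and the phospholipase Plcg2 had -0.83 (SE 0.26), each with an unadjusted p under 0.05 and a fold change short of 2. Its paralog Plcg1, among the 2 genes with a higher estimate, had 0.18 (SE 0.11, edgeR unadjusted p 0.12). The other was Fyn at 0.25 (SE 1.68), listed at 0 FPKM in ApoE-/- 3 and 4 and at 1.32 to 2.64 FPKM in the remaining libraries. Lower estimates were also found for Vav2 at -0.59 (SE 0.20, edgeR unadjusted p 0.016), Rac1 at -0.46 (SE 0.56) and Grb2 at -0.41 (SE 0.22).

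The inhibitory relay list holds phosphatases and docking proteins that Fcgr2b and like receptors recruit. It also holds Csk, Pag1, Cbl and Cblb and the receptors Pirb, Sirpa and Clec12a. Of 15 genes, 12 had a lower and 3 a higher estimate by title, 6 were lower at an unadjusted p under 0.05 (7.13% of all loci), and 4 met the criterion (2.39% of all loci). The median was -0.54. Among the 4 that met the criterion, Ptpn22 reached 1 FPKM only in ApoE-/- 2, 3 and 4, and so passed the filter through the libraries where it was high. Inpp5d, the lipid phosphatase SHIP1 that Fcgr2b recruits, was -0.98 (SE 0.32, edgeR adjusted p 0.29), while its paralog Inppl1 had an estimate of 0.10 (SE 0.12, unadjusted p 0.43). The tyrosine phosphatase Ptpn6 (SHP-1) had -1.02 (SE 0.40) and the related Ptpn11 (SHP-2) 0.18 (SE 0.11, unadjusted p 0.13). Sirpa and Clec12a, receptors with inhibitory motifs on myeloid cells, had -1.47 (SE 0.40) and -1.27 (SE 0.45).

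Fcer1g is not the only ITAM adaptor of myeloid cells. Of 14 other adaptors and receptors that signal through such a motif, 7 were tested, 7 had a lower estimate by title and 1 met the criterion (2.39% of all loci), with a median of -1.14. Tyrobp (DAP12) had a higher FPKM than the gamma chain, at 16.64 to 108.58, and a log2 fold change of -1.14 (SE 0.55, unadjusted p 0.070). The criterion was met by the locus of Clec7a (Dectin-1), shared with Clec1a, at -1.35 (SE 0.38). Pira2 had -0.90 (SE 0.39), in a locus shared with Pirb whose 1 value is also counted in the inhibitory relay. Cd79b of the B cell receptor had -2.22 (SE 1.04, edgeR unadjusted p 0.062).

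Of 13 other Fc receptors listed, 2 passed the filter on low values. Fcrls, an Fc receptor-like gene of macrophages and microglia, was 7.69 to 20.42 FPKM in ApoE-/- and 3.39 to 10.43 FPKM in NPRC-/-ApoE-/- and met the criterion at -1.28 (SE 0.49, edgeR adjusted p 0.33). Trim21, the cytosolic antibody receptor, had -0.11 (SE 0.21). Fcmr, the receptor for IgM, reached 3.43 FPKM in ApoE-/- 2 and was between 0.04 and 0.31 FPKM in the other libraries.

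Immunoglobulin transcripts of the aorta were also read. They do not measure the antibody protein that the receptors bind. Of 12 listed genes, which fell in 7 loci, 3 loci passed the filter and 3 met the criterion by title, where 2.39% of all loci were called lower. Jchain, which joins IgA and IgM units, was 0.47, 10.00, 5.59, 4.73 and 0.73 FPKM in ApoE-/- 1 to 5 and 0.44, 0.12 and 0.11 FPKM in NPRC-/-ApoE-/- 1 to 3, with -4.24 (SE 1.14, edgeR adjusted p 0.26). Jchain reached 1 FPKM only in ApoE-/- 2, 3 and 4, and so passed the filter through the libraries where it was high. The locus that holds Igkc had -4.28 (SE 1.37). The heavy chain locus, in which Ighg1, Ighm and other constant regions share 1 value, had -3.23 (SE 0.92) and was 12.80, 11.60 and 9.79 FPKM in ApoE-/- 2, 3 and 4 against 1.48 FPKM at most in the other 5 libraries. The Igkc and Jchain loci were likewise highest in these 3 libraries.

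B2m, the light chain that Fcgrt needs, did not follow Fcgrt. It was 171.51, 189.96, 180.15, 161.80 and 156.69 FPKM in ApoE-/- 1 to 5 and 117.06, 93.89 and 89.30 FPKM in NPRC-/-ApoE-/- 1 to 3, without overlap by title. The log2 fold change was -0.77 (SE 0.14, unadjusted p 0.00035, edgeR adjusted p 0.19). By genotype entry it was -0.13 (SE 0.29, edgeR unadjusted p 0.67). B2m also pairs with the class I molecules of all nucleated cells.

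**Figure D5:**
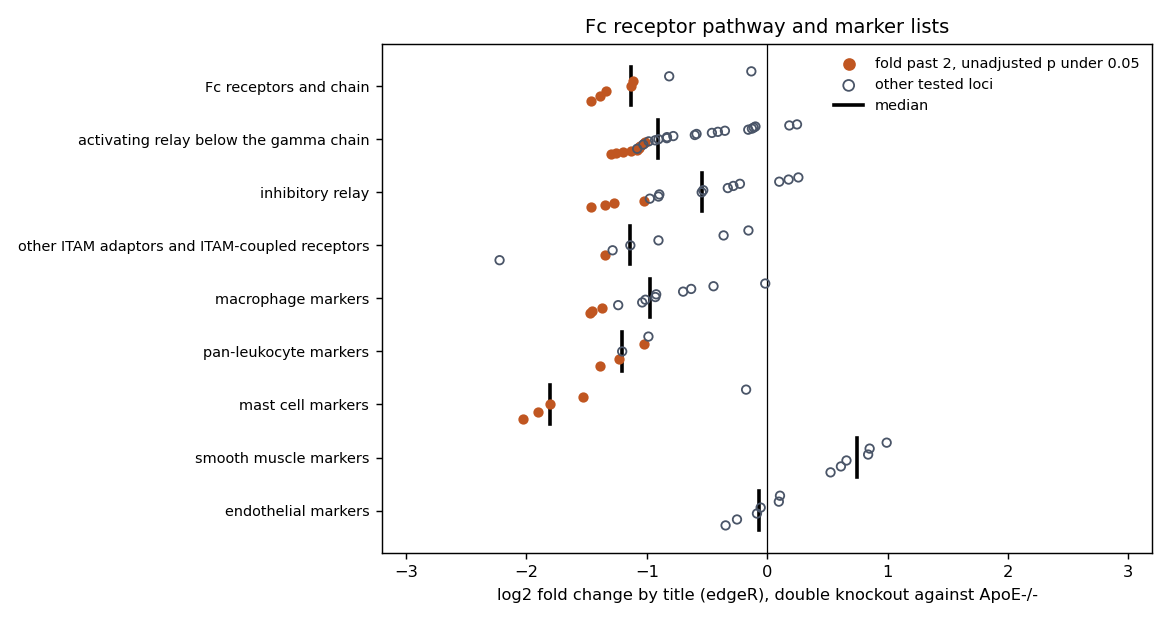
Log2 fold change by title of each tested locus of the pathway and marker lists, filled where the fold change was past 2 with an unadjusted p under 0.05, with the median of each list as a bar. Medians are -0.90 for the activating relay, -0.54 for the inhibitory relay, -0.97 for macrophage markers and -1.80 for mast cell markers, and the smooth muscle list has a median of 0.75 with 0 filled points.

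By genotype entry, 0 genes of any of these lists met the criterion of the study. The median log2 fold change was -0.24 for the activating relay, -0.10 for the inhibitory relay and -0.17 for the macrophage markers.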

How the data were processed

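Whole aortas in 8 libraries were analysed. The authors trimmed the reads (cutadapt 1.9 per the submitters' notes, which also name FastQC and GRCm38), mapped them with HISAT2, assembled loci with StringTie and deposited whole-number counts per locus, not normalized, and FPKM values, which the authors scaled to transcript length and mapped fragments. How StringTie output became counts is not given in the sources used here. The table had 0 columns without a sample, and no columns of the authors' own comparisons were used.

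The 20506 loci that reached 1 FPKM in 3 or more libraries were tested with edgeR 4.0.16 in R 4.3.3 (TMM, quasi-likelihood, Benjamini-Hochberg adjustment over all loci), which was tested on simulated data. The biological coefficient of variation was 0.327, and the number of libraries limits the precision. Log2 CPM used a prior count of 2. Exact permutation tests used scipy 1.17.1. DESeq2 1.42.0, limma 3.58.1, other scalings, filters and pseudocounts, each library left out, the replicate block and the 4 libraries with agreeing labels were alternatives. The genes and lists were chosen with earlier results of these data known. All 7 genes are named, with up to 4 tested genes per list that had a mean of at least 1 FPKM and the smallest unadjusted p by title, and the 3 loci most like each gene. Plcg1, Inppl1, Ptpn11 and the scarce genes Fcer1a, Ms4a2, Ly6g and Fcmr were added after their values were seen. The same holds for Vav2, Rac1, Grb2, Fyn, Ptpn22, Cd68, Itgam, Mertk, S100a9 and Retnlg. No protein sequences were used here.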

Additional observations from a re-analysis of the deposited data

How the results depend on the processing

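By title, the criterion of the study was met by 5 of 7 genes, by 0 when grouped by genotype entry, and by 1 to 6 with a library left out. The share of all loci called lower was 2.39% by title and 0.263% by genotype entry. The 4 libraries whose labels agree are 3 against 1, where the lone library is assumed to vary like the others. With these the log2 fold changes of the 7 genes ran from -2.43 to -0.01. With a mean of at least 5 FPKM Fcgr1 was not tested and 4 of 6 genes met the criterion, with 78 of 4246 loci called lower. Scaling, tool, pseudocount and dropping the filter kept 5, while the loci called lower varied. They were 483 of 20506 with median-ratio scaling and 556 of 20488 with DESeq2. Of 20506, limma called 137 lower on log2(FPKM + 1), 495 on log2(FPKM + 0.1) and 373 with array quality weights. Without the filter 1544 of 44689 were called lower. Over all loci, the count meeting the criterion by title was 712 of 20506. Among alternatives that kept the titles and all loci differed only in processing or libraries used, the count depended on the number of loci tested. It was lowest, at 114 of 4246, with a mean of at least 5 FPKM. It was highest, at 2287 of 44689, with the filter dropped. Leaving out a library gave 403 to 1635 of 20506. By genotype entry the count was 95 of 20506. It was 7 to 785 over the alternatives other than leaving out a library, at the same 2 filters, and 84 to 240 over those. At an adjusted p under 0.05, limma with array quality weights called 1168 loci and DESeq2 650 by title. With those weights the adjusted p of the 6 genes other than Fcgrt was 0.036 to 0.043.

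With the genotype entry, Fcgrt changed sign to 0.15. By genotype entry, leaving out a library gave log2 fold changes of -0.99 to 0.11 for Fcer1g, -1.24 to 0.037 for Fcgr1, -0.96 to 0.12 for Fcgr2b, -1.08 to 0.16 for Fcgr3, -1.19 to 0.17 for Fcgr4 and -0.71 to 4.6e-05 for Syk. The signs turned without NPRC-/-ApoE-/- 3 or, for some genes, without ApoE-/- 3 or 5, and the cause was not tested.

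Titles share the numbers 1 to 3. With the replicate block on those 6 libraries 4 genes met the criterion, against 5 without it, and 534 and 586 of 20506 loci were called lower. Libraries of the same number did not deviate together (r between -0.31 and 0.01, against -0.16 to 0.23 for other numbers), so the numbers were not taken as pairs. The lowest count of any of the 7 genes in a library was 223, for Fcgr1, and the effect of depth was not tested.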
